A study of Gallus gallus with 4 samples.

Results

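Ion channels are membrane proteins that let calcium, sodium, chloride or protons cross a membrane, and the genes described here encode the channels for these ions together with the TRP and polycystin cation channels. In gonads, calcium released from internal stores or entering through the plasma membrane is known for its part in egg activation, sperm motility, contraction and the secretion of hormones. Voltage-gated channels open when the membrane potential changes, store-operated channels open when the endoplasmic reticulum is depleted of calcium, and ligand-gated channels open on binding a messenger such as ATP or inositol trisphosphate. The genes were taken by a pattern on the symbol, namely a start with CACN, CATSPER, CLCN, CLIC, RYR, ORAI, PKD, HVCN, TPCN or P2RX. A start with SCN counted where a digit or N followed, and ANO, TRPA, TRPC, TRPM and TRPV where a digit followed. ITPR1, ITPR2, ITPR3, STIM1 and STIM2 were taken too. The pattern took in 225 of 38382 tested probe sets. Of these, 224 were annotated to a single gene, which gave 96 of the 13008 genes with a symbol, and 1 was annotated to SCN1A, SCN2A and SCN3A together and was assigned to none of them. The pattern also took in PKDCCA, PKDCCB and TRPC4AP, which are no channel genes. The first pair are related to a secreted protein kinase, and TRPC4AP encodes a protein that associates with a TRP channel. All 3 are counted among the 96 genes below, also where these are called channel genes.

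RNA came from whole ovaries of female and whole testes of male chickens that were 17 weeks old and belonged to inbred CB congenic lines of White Leghorn origin. Equal amounts of RNA from 4 animals were pooled, and each pool was measured on 1 Affymetrix Chicken Genome Array, which gave 2 ovary pools (8 females) and 2 testis pools (8 males) with no treatment in either organ. The values are log2 expression values per probe set, and differences are ovary minus testis, so that positive values are higher in ovary. A gene is given by its probe set with the highest mean over the 4 arrays, a call means an adjusted p under 0.05 in limma over all probe sets, and the background level is log2 3.32.

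Between 42.7% and 49.8% of the channel probe sets lay above the background level on an array, against 55.1% to 55.7% of all probe sets. Oocyte and spermatid markers followed the organ labels. Of 7 measured oocyte markers 6 were called higher in ovary, with a mean of log2 9.10 and 9.06 in the ovary pools, against 2.96 and 2.86 in the testis pools. Of 9 spermatid markers 8 were called higher in testis, with a mean of log2 3.98 and 3.99 in the ovary pools, against 12.44 and 12.46 in the testis pools. Nerve and glia markers (7 of 9, with GFAP at background in every pool) and markers of adrenal cortex and chromaffin cells (5 of 6) were also called higher in ovary. Their means were log2 7.90 and 7.95 in the ovary pools, against 5.02 and 4.82 in the testis pools, for nerve and glia, and 9.54 and 8.73, against 2.57 and 2.58, for adrenal cells. Of the gonad's own cells, 5 of 8 granulosa cell markers were called toward ovary and 1 toward testis, 5 of 6 steroidogenic cell markers toward ovary, 1 of 5 Sertoli cell markers toward ovary and 3 toward testis, and 7 of 8 spermatocyte markers toward testis. AMH was on both the granulosa and the Sertoli cell list and is the Sertoli cell call toward ovary. The granulosa cell marker called toward testis was INHA (difference -3.98), at background in ovary. Endothelial markers (4 of 7 toward ovary, 1 toward testis), epithelial markers (4 of 4 toward ovary) and leukocyte markers (3 of 7 toward ovary, 2 toward testis) had calls too, as had 1 of 6 kidney markers (UMOD, toward testis), 1 of 2 blood cell markers (HBA1, toward ovary) and 2 of 6 oviduct markers (1 toward each organ). Smooth muscle markers gave 0 calls among 6 in limma (1 at an unadjusted p under 0.05), and of 5 skeletal muscle markers TNNT3 (-3.36, adjusted p = 0.00311) and ACTA1 (-1.40, adjusted p = 0.00544) were called toward testis while TNNC2, MYLPF and TNNI2 were at background in every pool. The part of these cell types in the channel results was not tested. In whole-tissue RNA, fewer cells of a type and less RNA per cell cannot be told apart.

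Calls toward ovary were made for 16 of the 96 genes and calls toward testis for 20, or 37.5% in either direction, where 53.0% of all genes with a symbol were called. By direction that is 16.7% and 20.8%, against 28.7% and 24.3% of all genes. Counted by probe set, 30 of 225 pointed to ovary (13.3%, against 18.2% of all probe sets) and 41 to testis (18.2%, against 17.4%), or 31.6% against 35.6% in either direction. Both ovary pools lay above both testis pools for 36 of the 96 genes, where 45.2% of all genes did, and both below for 30, where 36.0% did. Genes at background in every pool are among these. Of the 69 genes among the 96 above background in at least 1 pool, the counts were 26 and 29. Over all 10716 such genes they were 5177 and 4428. The brightest probe set was at background in all 4 pools for 27 genes (28.1%, against 17.6% of all genes), and 48 genes were above background in all 4. At 4-fold or more, 12 genes were called toward ovary (12.5%, against 11.9% of all genes) and 14 toward testis (14.6%, against 10.9%). All 3 genes that are no channel genes were among the calls toward ovary, 2 of them at 4-fold or more. The median difference was 0.0046 over the 96 genes and 0.015 over all genes. Both pools of one organ and neither pool of the other lay above background for 1 gene in ovary (1.04%, against 3.61% of all genes). This was PKDCCB, which is no channel gene. In testis the same held for 8 genes, CACNB4, TRPV3, P2RX1, SCN9A, SCN2A, SCN1A, SCNN1D and ANO9 (8.33%, against 3.69%), of which SCN9A and ANO9 were not called. Across the channel probe sets the pair of ovary pools had r = 0.985 and the pair of testis pools 0.986. An ovary with a testis pool gave 0.697 to 0.719. Over all probe sets these values were 0.991, 0.995 and 0.825 to 0.834. This is a description in which probe sets share arrays and genes.

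**Figure D1:**
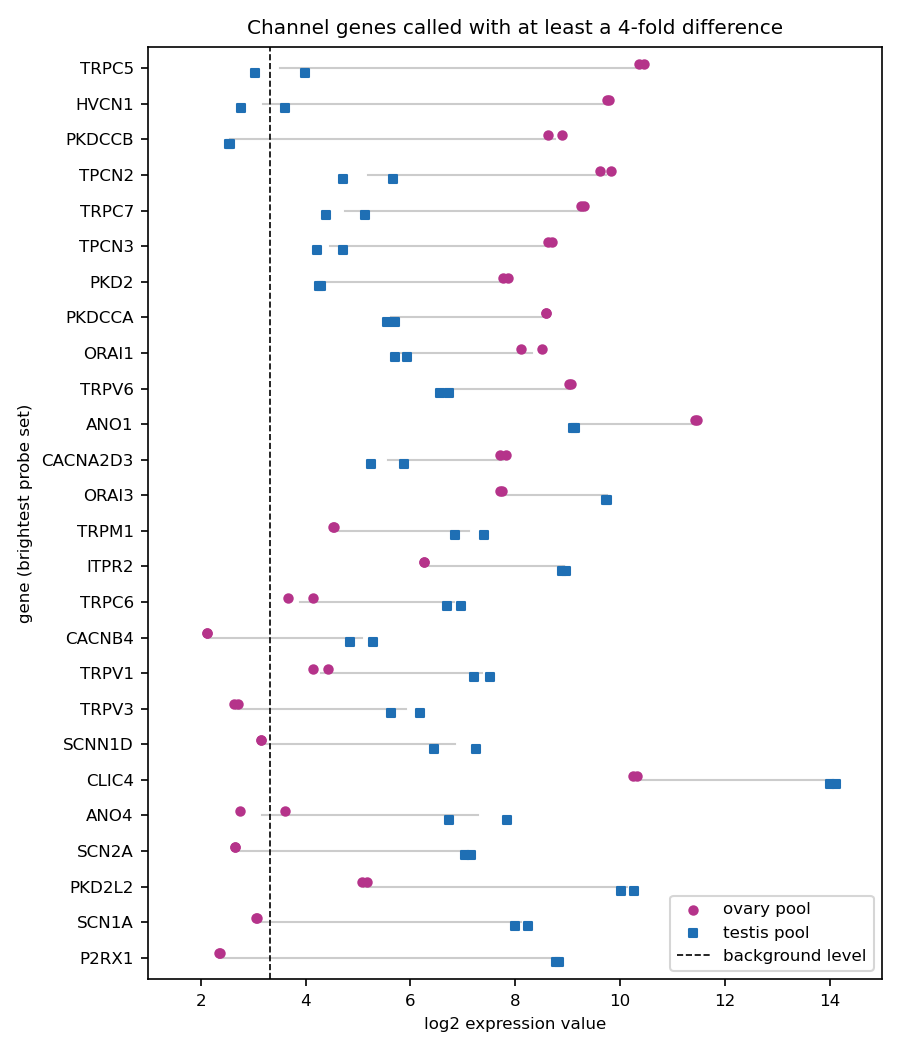
The log2 expression value (x axis) of each of the 96 genes called with at least a 4-fold difference (y axis, brightest probe set), with circles for the 2 ovary pools, squares for the 2 testis pools and a dashed line at the background level of log2 3.32. PKDCCB and PKDCCA are drawn too and are no channel genes. The 12 genes from TRPC5 to CACNA2D3 have both ovary pools above both testis pools, and the 14 genes from ORAI3 to P2RX1 have both below.

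Toward ovary, by brightest probe set, TRPC5, HVCN1 and PKDCCB had the largest differences. HVCN1 encodes the voltage-gated proton channel, which lets protons leave the cell and is known from mammalian leukocytes and human sperm. It stood at log2 9.75 and 9.79 in the ovary pools, against 2.77 and 3.61 in the testis pools, with 1 testis pool at background, a difference of 6.58 (SE 0.36, adjusted p = 0.00441). Its other probe set went the same way, at log2 6.46 and 6.66 in the ovary pools, against 4.44 and 3.44 in the testis pools (difference 2.62, SE 0.44, adjusted p = 0.0363). Two-pore channels release calcium from endosomes and lysosomes. Both of the two-pore channel genes that the annotation named, TPCN2 and TPCN3, were higher in ovary. TPCN2 had log2 9.63 and 9.83 in the ovary pools, against 5.67 and 4.72 in the testis pools, and its difference was 4.53 (SE 0.41, adjusted p = 0.0109), or 23.2-fold. TPCN3, a paralogue that humans and mice lack, had log2 8.70 and 8.62 in the ovary pools, against 4.72 and 4.22 in the testis pools, a difference of 4.19 (SE 0.22, adjusted p = 0.00405), or 18.3-fold. The ovary pools lay close together for all 3 genes, and the testis pools were lower and farther apart. The second probe set of TPCN2 was called too (difference 5.62, SE 0.12, adjusted p = 0.0012). The call of TPCN2 ended without ovary pool 2 (adjusted p = 0.0284 to 0.052 over the 4 fits that leave out a pool).

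TRP channels, which pass cations in response to lipids, heat, cold or plant compounds, went in both directions. Among 17 genes there were 4 calls toward ovary, 5 toward testis and 8 genes without a call. The called shares were 23.5% and 29.4%, against 28.7% and 24.3% of all genes. Among the receptor-activated TRPC genes, TRPC5 and TRPC7 were the ovary-higher ones. TRPC5 stood at log2 10.46 and 10.37 in the ovary pools, against 3.03 and 3.99 in the testis pools, with 1 testis pool at background and a difference of 6.90 (SE 0.41, adjusted p = 0.00512). For TRPC7 the levels were log2 9.32 and 9.26 in the ovary pools, against 4.39 and 5.13 in the testis pools, a difference of 4.53 (SE 0.32, adjusted p = 0.0067), or 23.1-fold, and its dimmer probe set, at background in testis, gave at least 12.3-fold toward ovary (adjusted p = 0.00271). Neither gene had a pool that overlapped with the other organ. Markers of several cell types, given above, had most of their calls toward the same ovary pools. Among them were oocyte, granulosa, steroidogenic, endothelial, epithelial, nerve and glia, and adrenal markers. The part of any of these in the TRPC5, TRPC7 and HVCN1 differences was not tested. TRPC6, another channel that opens on diacylglycerol, had log2 4.14 and 3.66 in the ovary pools, against 6.70 and 6.96 in the testis pools, a difference of -2.93 (SE 0.23, adjusted p = 0.00851) toward testis. TRPC1, which can join TRPC5 in one channel, was well above background in both organs, at log2 8.61 and 8.68 in the ovary pools, against 9.65 and 9.58 in the testis pools. Its difference was small, -0.97 (SE 0.049, adjusted p = 0.0039), and each of its 4 probe sets was called in that direction, between -0.97 and -1.40. TRPC4, a close relative of TRPC5, was at background in every pool in all 5 of its probe sets.

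In the TRPV family 1 of 5 genes was called toward ovary and 2 toward testis, where 28.7% and 24.3% of all genes were. TRPV6, the channel of calcium-absorbing epithelia, had log2 9.02 and 9.07 in the ovary pools, against 6.56 and 6.75 in the testis pools, a difference of 2.39 (SE 0.084, adjusted p = 0.00232), or 5.24-fold. Its 2 other probe sets were at background in every pool and were not called. TRPV1, the heat and capsaicin receptor of mammals, had log2 4.15 and 4.43 in the ovary pools, against 7.22 and 7.52 in the testis pools, a difference of -3.08 (SE 0.18, adjusted p = 0.00476), or 8.46-fold higher in testis. TRPV3, a warmth sensor of mammalian skin, was at background in ovary, with log2 2.64 and 2.70 in the ovary pools, against 5.62 and 6.19 in the testis pools, and was at least 6-fold higher in testis (difference -3.24, SE 0.25, adjusted p = 0.00777). The testis pools of TRPV1 and TRPV3 thus lay far above their ovary pools, opposite to TRPV6. Of the other members, TRPV2 lay above background in all 4 pools and did not pass (difference 0.23, SE 0.056, adjusted p = 0.0805), and TRPV4 was at background. Among the TRPM genes, TRPM1, needed by the retinal ON bipolar cells of mammals, had log2 4.53 and 4.53 in the ovary pools, against 7.40 and 6.85 in the testis pools, a difference of -2.59 (SE 0.23, adjusted p = 0.0107), or 6.04-fold higher in testis, with 3 of 3 probe sets called. The cold sensor TRPM8 had log2 6.45 and 6.40 in the ovary pools, against 4.61 and 5.28 in the testis pools, a difference of 1.48 (SE 0.29, adjusted p = 0.0491), while its second probe set, at background in both organs, was called toward testis (difference -0.67, adjusted p = 0.00486). A probe set at background gives no direction for TRPM8. TRPM7, a channel fused to a kinase, had log2 7.71 and 7.94 in the ovary pools, against 7.97 and 7.94 in the testis pools, overlapping pools and no call (difference -0.13, SE 0.10, adjusted p = 0.485). Its dimmest probe set, at background in ovary, was called toward testis (difference -1.16, SE 0.11, adjusted p = 0.0119), and the remaining one was not called. The irritant sensor TRPA1 had log2 7.56 and 7.81 in the ovary pools, against 8.25 and 7.91 in the testis pools, and did not pass (difference -0.39, SE 0.18, adjusted p = 0.265). TRPM2 had log2 2.38 and 2.38 in the ovary pools, against 5.55 and 3.26 in the testis pools, with testis pools far apart and no call (difference -2.02, SE 0.98, adjusted p = 0.281), and TRPM3 and TRPM5 were at background in every pool.

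Calls of 4 TRP genes ended when either pool of one organ was left out. Those of TRPM8 and TRPM1 ended without either ovary pool (adjusted p = 0.0228 to 0.157 and 0.0117 to 0.0516 over the 4 fits that leave out a pool), and those of TRPC6 and TRPV1 without either testis pool (adjusted p = 0.0169 to 0.0946 and 0.0189 to 0.0562).

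**Figure D2:**
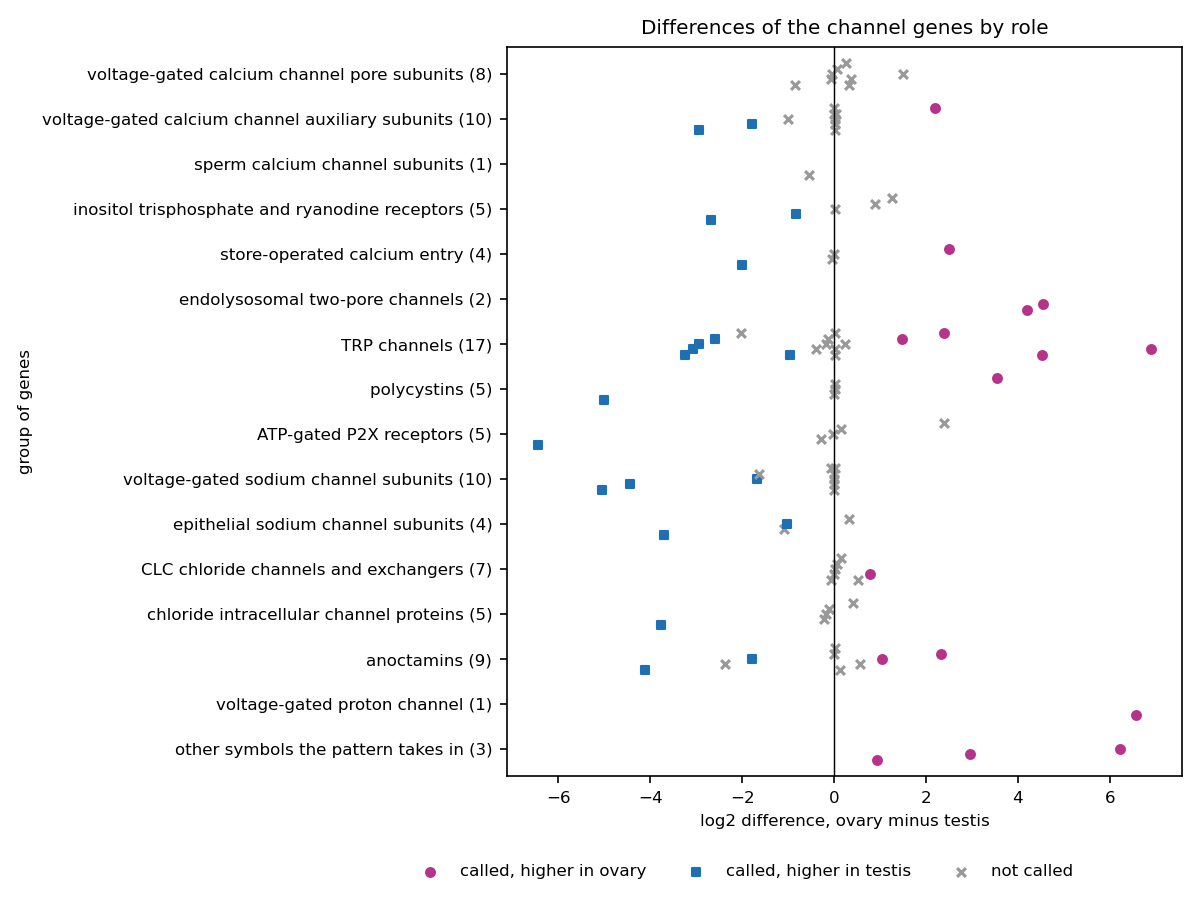
The log2 difference, ovary minus testis (x axis), of each of the 96 genes, 1 point a gene, in rows by role (y axis, number of genes in brackets), with circles for genes called higher in ovary, squares for genes called higher in testis and crosses for genes not called. Both two-pore channel genes among the 96 lie right of 0, all 5 called voltage-gated and epithelial sodium channel genes lie left of it, and TRP genes lie on both sides.

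Polycystins resemble TRP channels and are known from primary cilia, where PKD2 encodes the channel mutated in human polycystic kidney disease. PKD2 stood at log2 7.86 and 7.77 in the ovary pools, against 4.29 and 4.26 in the testis pools, a difference of 3.54 (SE 0.043, adjusted p = 0.000632), or 11.6-fold. Its other probe set was at background in every pool and was not called (difference 0.054, adjusted p = 0.406). PKD2L2, a related gene, went the other way with log2 5.08 and 5.17 in the ovary pools, against 10.27 and 10.01 in the testis pools, a difference of -5.01 (SE 0.12, adjusted p = 0.00136), or 32.3-fold higher in testis. Its second probe set gave nearly the same difference, -5.07 (adjusted p = 0.00204). In the brightest probe sets the pools of each organ lay close together for both genes, and the gap between the organs was many times their spread. Spermatid markers, given above, were higher in the same testis pools as PKD2L2, as were markers of some other cell types, and their part was not tested. PKD1, PKD1L2 and PKD2L1 were at background in every pool.

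Store-operated entry joins STIM sensors in the endoplasmic reticulum to ORAI pores in the plasma membrane. The pore genes divided between the organs. ORAI1 had log2 8.52 and 8.12 in the ovary pools, against 5.94 and 5.71 in the testis pools, a difference of 2.50 (SE 0.20, adjusted p = 0.00831), or 5.64-fold. ORAI3 had log2 7.75 and 7.71 in the ovary pools, against 9.76 and 9.74 in the testis pools, a difference of -2.01 (SE 0.027, adjusted p = 0.000702), or 4.03-fold higher in testis, and its second probe set agreed in direction (difference -1.41, SE 0.17, adjusted p = 0.0189). The sensor genes were well above background in both organs, with overlapping pools. STIM1 stood at log2 9.27 and 8.91 in the ovary pools, against 9.11 and 9.17 in the testis pools, a difference of -0.049 (SE 0.16, adjusted p = 0.888), and STIM2 at log2 8.90 and 9.07 in the ovary pools, against 8.89 and 9.09 in the testis pools, a difference of -0.0038 (SE 0.11, adjusted p = 0.991). A dim probe set of STIM1 was called toward testis, at log2 2.56 and 2.48 in the ovary pools, against 3.35 and 3.16 in the testis pools, where only 1 pool exceeded the background level. Without either testis pool the call of ORAI1 ended (adjusted p = 0.0176 to 0.0924 over the 4 fits).

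Inositol trisphosphate receptors and ryanodine receptors release calcium from the endoplasmic reticulum, and the calcium waves of fertilised vertebrate eggs run through inositol trisphosphate receptors. ITPR1, the main receptor of mammalian eggs, had log2 5.29 and 5.77 in the ovary pools, against 4.46 and 4.09 in the testis pools, with no overlap but no call (difference 1.26, SE 0.26, adjusted p = 0.0566). ITPR3 had log2 5.86 and 6.77 in the ovary pools, against 5.50 and 5.37 in the testis pools, also not called (difference 0.88, SE 0.39, adjusted p = 0.248). ITPR2 was called higher in testis in its brightest probe set, with log2 6.26 and 6.27 in the ovary pools, against 8.97 and 8.90 in the testis pools, a difference of -2.67 (SE 0.036, adjusted p = 0.000702). A second probe set of ITPR2, at log2 7.30 and 7.33 in the ovary pools, against 7.09 and 6.65 in the testis pools, did not pass (difference 0.44, SE 0.19, adjusted p = 0.23), nor did the third (difference -0.10, SE 0.51, adjusted p = 0.931). The ryanodine receptor genes gave no single answer. RYR2, the receptor of heart muscle, had, in its brightest probe set, log2 4.79 and 5.11 in the ovary pools, against 5.70 and 5.86 in the testis pools, a small difference of -0.83 (SE 0.15, adjusted p = 0.0455). Its other probe set had log2 6.71 and 6.61 in the ovary pools, against 2.97 and 2.52 in the testis pools, and was at least 10.1-fold higher in ovary (difference 3.91, SE 0.20, adjusted p = 0.00389). The direction for RYR2 thus depended on the probe set. The call toward testis ended under 5 of the 10 settings that kept all pools, changed sign when probe sets were averaged, and ended in 3 of the 4 fits that leave out a pool (adjusted p = 0.04 to 0.217). RYR3 was at background.

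Voltage-gated calcium channels consist of a pore subunit and auxiliary subunits that set how many pores reach the membrane. Among the 8 pore subunit genes, 0 were called by the brightest probe set in limma, where 53.0% of all genes with a symbol were. Of these 8 genes 0 had an unadjusted p under 0.05, and no alternative that kept all pools called more than 1. CACNA1C, the L-type pore of heart and smooth muscle, had log2 4.10 and 5.69 in the ovary pools, against 3.60 and 3.19 in the testis pools, with ovary pools far apart (difference 1.50, SE 0.70, adjusted p = 0.266), while 2 dimmer probe sets were called higher in ovary, 1 of them at log2 4.31 and 4.17 in the ovary pools, against 3.36 and 3.30 in the testis pools (difference 0.91, SE 0.068, adjusted p = 0.00742). The N-type gene CACNA1B stood at log2 5.51 and 5.42 in the ovary pools, against 5.25 and 5.77 in the testis pools, with overlapping pools (difference -0.044, SE 0.23, adjusted p = 0.935). CACNA1G, a T-type pore, did not differ beyond its spread either, at log2 5.38 and 5.38 in the ovary pools, against 5.31 and 5.59 in the testis pools (difference -0.073, SE 0.12, adjusted p = 0.754). The other 5 pore genes, CACNA1D, CACNA1E, CACNA1H, CACNA1I and CACNA1S, differed by -0.85 to 0.36 with no probe set called.

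Among 10 auxiliary subunit genes, 1 was called toward ovary and 2 toward testis (10% and 20%, against 28.7% and 24.3% of all genes). CACNA2D1, counted toward testis by its brightest probe set, also had probe sets called toward ovary. CACNA2D3 had log2 7.71 and 7.83 in the ovary pools, against 5.24 and 5.89 in the testis pools, a difference of 2.20 (SE 0.28, adjusted p = 0.0207), or 4.6-fold, a call that ended without either ovary pool (adjusted p = 0.0345 to 0.0849 over the 4 fits). The 2 other CACNA2D3 probe sets were at background in every pool and were not called. CACNB4, a beta subunit that carries the pore to the membrane, was at background in ovary, with log2 2.13 and 2.12 in the ovary pools, against 4.85 and 5.29 in the testis pools, and was at least 3.35-fold higher in testis (difference -2.94, SE 0.19, adjusted p = 0.00565). Its second probe set was not called (difference -1.67, SE 0.60, adjusted p = 0.171). CACNB2 had log2 3.07 and 3.61 in the ovary pools, against 4.26 and 4.41 in the testis pools, and did not pass (difference -0.99, SE 0.24, adjusted p = 0.0787). CACNA2D1, the subunit that binds gabapentin in mammals, was called in both directions. Its brightest probe set had log2 8.11 and 8.17 in the ovary pools, against 9.94 and 9.93 in the testis pools (difference -1.80, SE 0.03, adjusted p = 0.000887), and a second had log2 9.28 and 9.45 in the ovary pools, against 8.23 and 7.82 in the testis pools (difference 1.34, SE 0.19, adjusted p = 0.0254). The remaining pair divided likewise, at -2.39 (adjusted p = 0.00418) and 0.74 (adjusted p = 0.00765), so that no direction can be given for the gene. Of the others, CACNA2D2 stood just above background in every pool with no call (difference -0.0015), and the 5 CACNG genes were at background.

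CATSPER4 encodes a pore subunit of the calcium channel of mammalian sperm, and it was the only CATSPER gene the annotation named. Its brighter probe set had log2 5.35 and 4.62 in the ovary pools, against 5.74 and 5.35 in the testis pools, with overlapping pools and a difference of -0.56 (SE 0.35, adjusted p = 0.405). The dimmer probe set gave -0.39 (SE 0.26, adjusted p = 0.426). Spermatid markers averaged log2 12.44 and 12.46 in the same testis pools, as given above.

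Voltage-gated sodium channels carry the upstroke of the action potential in nerve and muscle, and 10 genes gave 3 calls toward testis (30.0%, against 24.3% of all genes) and 0 toward ovary (against 28.7%) in limma, with 0 toward ovary also at an unadjusted p under 0.05. SCN1A, one of the brain-type pores, had log2 3.06 and 3.07 in the ovary pools, against 8.00 and 8.24 in the testis pools, and was at least 27.8-fold higher in testis (difference -5.06, SE 0.10, adjusted p = 0.00112). Its other probe sets were called too, 1 with a difference of -4.02 (adjusted p = 0.0207) and 1 that was at least 3.5-fold higher (adjusted p = 0.0416). SCN2A had log2 2.66 and 2.66 in the ovary pools, against 7.17 and 7.03 in the testis pools, and was at least 13.7-fold higher in testis (difference -4.44, SE 0.059, adjusted p = 0.000705), but its 4 dimmer probe sets were not called. In these brightest probe sets both genes were at background in ovary and above it in testis. Among the dimmer ones, 1 of SCN1A and 2 of SCN2A had an ovary pool above background. The probe set that the annotation gives to SCN1A, SCN2A and SCN3A together was also higher in testis, at log2 4.13 and 3.36 in the ovary pools, against 7.93 and 8.01 in the testis pools. These genes are close paralogues, and whether the SCN1A and SCN2A probe sets can be told apart by sequence was not tested. SCN8A, expressed in neurons of mammals, had log2 4.40 and 4.55 in the ovary pools, against 6.41 and 5.92 in the testis pools, a difference of -1.69 (SE 0.22, adjusted p = 0.0219), with 3 of 5 probe sets called. SCN9A, the pain-fibre channel of humans, had log2 2.86 and 2.75 in the ovary pools, against 3.99 and 4.86 in the testis pools, and did not pass (difference -1.63, SE 0.37, adjusted p = 0.0704). SCN11A had log2 6.85 and 6.93 in the ovary pools, against 6.94 and 6.96 in the testis pools, close together in all pools, and was not called (difference -0.06, SE 0.039, adjusted p = 0.411). Among the beta subunits, which anchor the pores, SCN3B had 1 of 3 probe sets called, toward ovary, at log2 5.76 and 6.25 in the ovary pools, against 3.49 and 3.44 in the testis pools (difference 2.54, SE 0.21, adjusted p = 0.00925), while its brightest was not called (difference 0.012). SCN4A, SCN2B and SCN4B were at background in their brightest probe sets, as were the probe sets annotated to SCN3A alone. In the same pools 8 of 9 spermatid, 7 of 8 spermatocyte, 3 of 5 Sertoli cell and 2 of 5 skeletal muscle markers were called toward testis. Of the nerve and glia markers 7 of 9 were called toward ovary, as was 1 of 5 Sertoli cell markers. Other cell types had calls too, as given above. Their part in the sodium channel differences was not tested.

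Epithelial sodium channels take up sodium in kidney, colon and airway and consist of several different subunits. Calls toward testis came from 2 of 4 genes and calls toward ovary from 0 in limma (0 in ovary also at an unadjusted p under 0.05). Of all genes 24.3% were called toward testis and 28.7% toward ovary. SCNN1A, the alpha subunit, had log2 3.87 and 4.02 in the ovary pools, against 5.05 and 4.88 in the testis pools, a difference of -1.02 (SE 0.099, adjusted p = 0.0122), or 2.03-fold higher in testis. Its second probe set had log2 1.98 and 1.98 in the ovary pools, against 4.77 and 4.72 in the testis pools, with ovary at background, which gives at least 2.68-fold toward testis (adjusted p = 0.000528). SCNN1D, the delta subunit, was at background in ovary, with log2 3.16 and 3.14 in the ovary pools, against 7.25 and 6.46 in the testis pools, and was at least 11.5-fold higher in testis (difference -3.70, SE 0.34, adjusted p = 0.0109). SCNN1G, the gamma subunit, had log2 5.95 and 6.48 in the ovary pools, against 7.27 and 7.35 in the testis pools, without a call (difference -1.10, SE 0.23, adjusted p = 0.0579). Its dimmest probe set, at background in ovary, was called toward testis (difference -0.90, SE 0.12, adjusted p = 0.0234), and the remaining one was not called. SCNN1B was at background. Both testis pools lay above both ovary pools for 3 of the 4 genes, where 36.0% of all genes did. SCNN1G, not called in its brightest probe set, is among these 3. For SCNN1B, at background, both ovary pools lay above. Calls ended for SCNN1A without either testis pool (adjusted p = 0.0378 to 0.0893), for SCNN1D without either ovary pool (adjusted p = 0.0117 to 0.0522), and for SCN8A in 3 of the 4 fits that leave out a pool (adjusted p = 0.0482 to 0.0863).

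P2X receptors are cation channels opened by extracellular ATP. P2RX1, known from platelets and the smooth muscle of the vas deferens, had log2 2.34 and 2.36 in the ovary pools, against 8.83 and 8.78 in the testis pools, and was at least 44.7-fold higher in testis (difference -6.45, SE 0.027, adjusted p = 0.000304). Its pools lay close together within each organ, and no other gene of the 96 had a larger measured difference toward testis. Spermatid and spermatocyte markers were higher in the same testis pools, as were markers of some other cell types given above, and their part was not tested. P2RX4 had log2 6.60 and 6.76 in the ovary pools, against 4.91 and 3.67 in the testis pools, the reverse direction, but its testis pools were far apart and it did not pass (difference 2.39, SE 0.53, adjusted p = 0.0667). P2RX5 had overlapping pools, at log2 4.96 and 5.63 in the ovary pools, against 5.66 and 5.49 in the testis pools (difference -0.28, SE 0.29, adjusted p = 0.602), and P2RX3 and P2RX7 were at background.

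Of the chloride channel families, 1 of 7 CLC genes, 1 of 5 CLIC genes and 4 of 9 anoctamin genes were called, where 53.0% of all genes with a symbol were. The 4 CLIC genes without a call were at background in every pool. CLC proteins are chloride channels of the cell surface or exchangers of endosomes and lysosomes, and the called gene was CLCN5, the exchanger of early endosomes. It had log2 9.23 and 9.40 in the ovary pools, against 8.58 and 8.47 in the testis pools, a small difference of 0.79 (SE 0.09, adjusted p = 0.0165), and its second probe set did not pass (difference 0.20, SE 0.12, adjusted p = 0.384). CLCN3 and CLCN6 were detected in both organs and had overlapping pools in their brightest probe sets. CLCN3 had log2 9.26 and 9.22 in the ovary pools, against 9.18 and 9.44 in the testis pools (difference -0.071, SE 0.11, adjusted p = 0.749), and CLCN6 had log2 9.71 and 9.89 in the ovary pools, against 9.71 and 9.78 in the testis pools (difference 0.057, SE 0.082, adjusted p = 0.716). A dimmer probe set of CLCN6 had log2 3.85 and 3.61 in the ovary pools, against 6.11 and 6.38 in the testis pools, a called difference of -2.52 (SE 0.16, adjusted p = 0.00541). The second probe set of CLCN3 was called toward ovary, by a small amount (difference 0.41, SE 0.063, adjusted p = 0.03). CLCN7, the lysosomal exchanger, had log2 8.49 and 8.32 in the ovary pools, against 8.10 and 7.65 in the testis pools, and no call (difference 0.53, SE 0.20, adjusted p = 0.194). Its dimmer probe set leaned the other way, at log2 5.52 and 2.11 in the ovary pools, against 6.76 and 6.85 in the testis pools. The ovary pools were far apart there, and it was not called (difference -2.99, SE 1.45, adjusted p = 0.286). CLCN1 and CLCN4 lay close to background and CLCN2 at background, with no probe set called. Without either testis pool the call of CLCN5 ended (adjusted p = 0.0321 to 0.128 over the 4 fits).

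CLIC4 encodes a protein of the chloride intracellular channel family, which occurs in soluble and membrane forms. It had log2 10.33 and 10.25 in the ovary pools, against 14.01 and 14.12 in the testis pools, a difference of -3.78 (SE 0.063, adjusted p = 0.000896), or 13.7-fold higher in testis. Another CLIC4 probe set had log2 8.97 and 5.99 in the ovary pools, against 9.92 and 9.70 in the testis pools, with ovary pools far apart (difference -2.33, SE 1.28, adjusted p = 0.337), and its 3 other probe sets were at background. The other 4 CLIC genes, CLIC2, CLIC3, CLIC5 and CLIC6, were at background in every pool.

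Anoctamins are calcium-activated chloride channels or lipid scramblases. ANO1, the calcium-activated chloride channel of epithelia and smooth muscle, had log2 11.44 and 11.47 in the ovary pools, against 9.14 and 9.10 in the testis pools, a difference of 2.33 (SE 0.028, adjusted p = 0.000626), or 5.04-fold. All 3 of its probe sets were higher in ovary, at 2.33, 3.24 and 1.78. ANO5, linked to muscle disease in humans, had log2 8.70 and 8.84 in the ovary pools, against 7.82 and 7.62 in the testis pools, a difference of 1.05 (SE 0.11, adjusted p = 0.0131), and 2 of 3 probe sets were called. Toward testis, ANO4 had log2 3.60 and 2.74 in the ovary pools, against 6.73 and 7.84 in the testis pools (difference -4.12, SE 0.60, adjusted p = 0.0273), with 1 ovary pool at background, and its second probe set had log2 2.42 and 2.49 in the ovary pools, against 7.17 and 7.41 in the testis pools, and was at least 15.6-fold higher (difference -4.84, SE 0.11, adjusted p = 0.00132). Both ANO4 probe sets thus had the testis pools far above the ovary pools. ANO3 had log2 4.00 and 3.90 in the ovary pools, against 5.77 and 5.73 in the testis pools, a difference of -1.80 (SE 0.05, adjusted p = 0.00167), in 1 of 5 probe sets. ANO9 had log2 2.72 and 2.86 in the ovary pools, against 5.82 and 4.52 in the testis pools, and did not pass (difference -2.38, SE 0.56, adjusted p = 0.0744), ANO8 (difference -0.0087) and ANO10 (difference 0.57) lay near background with no call, and ANO2 and ANO6 were at background. The call of the brighter ANO4 probe set ended with any single pool left out (adjusted p = 0.0617 to 0.131), and that of ANO5 without ovary pool 2 or either testis pool (adjusted p = 0.0439 to 0.0805).

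**Figure D3:**
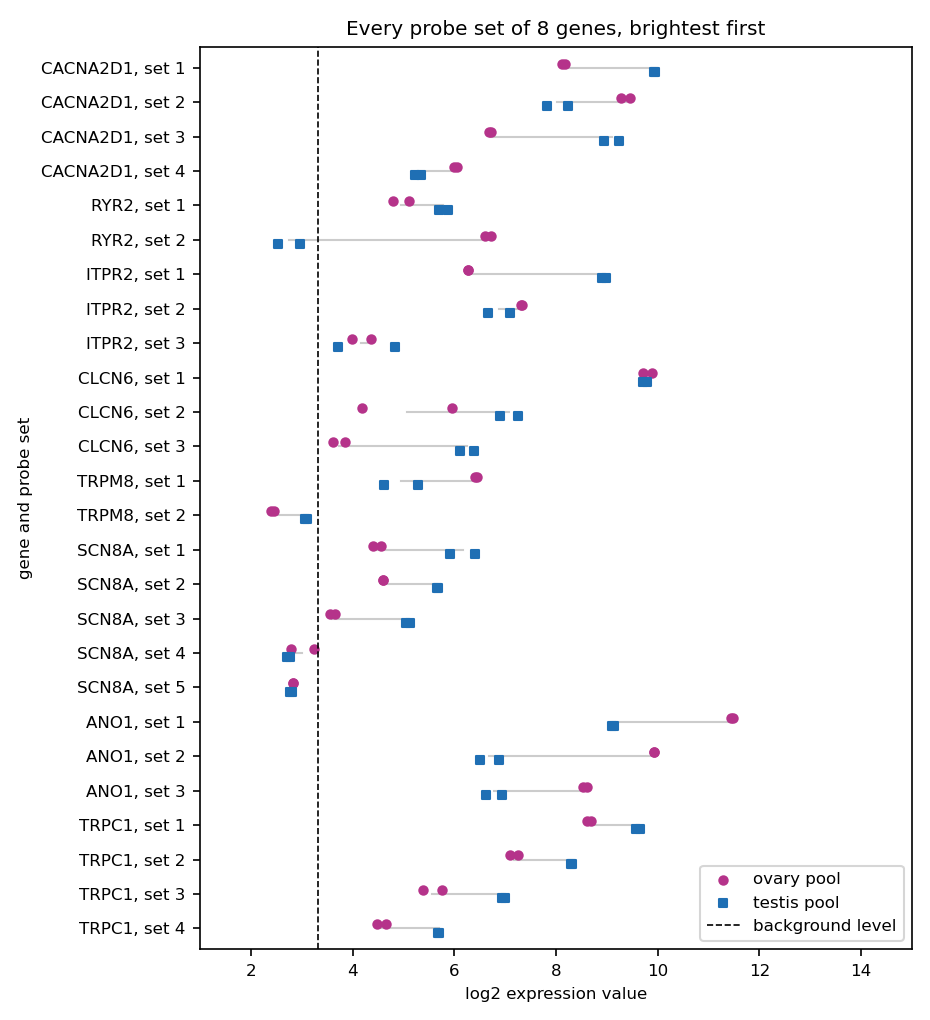
The log2 expression value (x axis) of every probe set of 8 genes, numbered from the brightest within a gene (y axis), with circles for the 2 ovary pools, squares for the 2 testis pools and a dashed line at the background level of log2 3.32. Circles lie right of squares in 2 of the 4 CACNA2D1 probe sets and left of them in the other 2, while all 3 ANO1 and all 4 TRPC1 probe sets keep one order.

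Several probe sets were available for 64 of the 96 genes. In 12 of them each probe set was called in one direction, namely ORAI3, TPCN2, TRPC7, TRPC1, TRPM1, TRPC6, PKD2L2, SCN1A, SCNN1A, ANO1, ANO4 and HVCN1. Probe sets of CACNA2D1, RYR2 and TRPM8 were called in both directions, for TRPM8 with the second set at background, where 3.94% of all genes with at least 2 probe sets had such a split. For 7 genes the brightest probe set was not called and another was, and these were CACNA1C, STIM1, TRPM7, SCN3B, SCNN1G, CLCN6 and CLCN3. The shares over all genes were not computed for these 7 genes or for the 12 above, so neither count can be called high or low.

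The 3 genes that the pattern took in without being channels were all higher in ovary. PKDCCB had log2 8.63 and 8.89 in the ovary pools, against 2.54 and 2.56 in the testis pools, and was at least 43.4-fold higher in ovary (difference 6.21, SE 0.11, adjusted p = 0.001). PKDCCA had log2 8.60 and 8.59 in the ovary pools, against 5.55 and 5.71 in the testis pools, a difference of 2.96 (SE 0.068, adjusted p = 0.00134), or 7.8-fold. TRPC4AP had log2 9.49 and 9.36 in the ovary pools, against 8.51 and 8.46 in the testis pools, a difference of 0.94 (SE 0.06, adjusted p = 0.00583), and the call ended without either testis pool (adjusted p = 0.0169 to 0.0778).

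Other genes that move or bind these ions were read from 7 lists that were drawn up by function, with earlier results of these data known. Calls toward ovary came from 32 of 152 measured genes and calls toward testis from 43, or 21.1% and 28.3%, where 28.7% and 24.3% of all genes were called. Their median difference was -0.0023, against 0.015 over all genes. With a pool left out these counts fell to between 16 and 30 for ovary and between 27 and 34 for testis, and no list was tested as a group. The calls of 18 of the 38 list genes eligible for naming ended with at least 1 pool left out. Among 17 calcium pumps and exchangers, 6 were higher in ovary and 4 in testis (35.3% and 23.5%, against 28.7% and 24.3% of all genes). SLN, which encodes the sarcolipin that slows the calcium pump of muscle, was at least 253-fold higher in ovary (difference 8.76, SE 0.031, adjusted p = 0.000304), and the pump gene ATP2A3 7.55-fold (difference 2.92, SE 0.098, adjusted p = 0.00219). The exchanger genes SLC24A5 (difference -3.95, SE 0.14, adjusted p = 0.00227), SLC24A3 (at least 5.06-fold, difference -3.51, SE 0.14, adjusted p = 0.00272) and SLC24A4 (difference -3.32, SE 0.26, adjusted p = 0.00807) were higher in testis, the last not without either testis pool (adjusted p = 0.0252 to 0.0772 over the 4 fits). Of 10 genes of mitochondrial calcium uptake, 4 were higher in ovary, among them MCU, the pore of the uniporter (21.9-fold, difference 4.45, SE 0.17, adjusted p = 0.00254), and its relative MCUB (difference 2.01, SE 0.15, adjusted p = 0.00774). Another 2 were higher in testis, LETM1 (difference -1.25, SE 0.16, adjusted p = 0.0197) and VDAC2 (difference -0.83, SE 0.074, adjusted p = 0.0106). Of all genes 28.7% were called toward ovary and 24.3% toward testis. Without either testis pool the calls of MCUB (adjusted p = 0.0313 to 0.0585), LETM1 (adjusted p = 0.0112 to 0.165) and VDAC2 (adjusted p = 0.0391 to 0.0749) ended.

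Regulators of calcium release and store-operated entry gave 4 calls in ovary and 0 in testis among 18 genes in limma. By share that was 22.2% and 0%, against 28.7% and 24.3% of all genes. At an unadjusted p under 0.05, 1 gene was toward testis. Leading toward ovary were BOK, which binds inositol trisphosphate receptors (difference 3.44, SE 0.28, adjusted p = 0.00888), and the scaffold gene HOMER2 (difference 3.13, SE 0.11, adjusted p = 0.00237). Of 18 genes of calmodulin and its effectors, 3 were higher in ovary and 8 in testis (16.7% and 44.4%, against 28.7% and 24.3% of all genes). The kinase gene CAMKK1 was 40.4-fold higher in testis (difference -5.34, SE 0.074, adjusted p = 0.00073), and the calcineurin subunit genes PPP3CA (difference 1.52, SE 0.20, adjusted p = 0.0224) and PPP3CB (difference 1.26, SE 0.10, adjusted p = 0.00889) were higher in ovary. Calls ended without either testis pool for BOK (adjusted p = 0.00742 to 0.106) and PPP3CB (adjusted p = 0.0338 to 0.0657), and without these or ovary pool 2 for PPP3CA (adjusted p = 0.0402 to 0.148). Calcium buffers and binding proteins showed 3 of 24 higher in ovary and 14 in testis (12.5% and 58.3%, against 28.7% and 24.3% of all genes). EFCAB1, an EF-hand gene also found in motile cilia, was 112-fold higher in testis (difference -6.80, SE 0.17, adjusted p = 0.00153), and EFCAB2 58.2-fold (difference -5.86, SE 0.16, adjusted p = 0.00167). S100A6 was higher in ovary (difference 2.35, SE 0.34, adjusted p = 0.0266), but not without either testis pool (adjusted p = 0.0271 to 0.172). Spermatid markers were higher in testis in the same pools, as were markers of some other cell types, and their part in these counts was not tested.

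Among 28 other chloride channel and carrier genes, 4 were higher in each organ (14.3% each, against 28.7% in ovary and 24.3% in testis of all genes). The potassium-chloride cotransporter gene SLC12A7 was 118-fold higher in ovary (difference 6.88, SE 0.35, adjusted p = 0.00389). Higher in testis were SLC26A8, an anion exchanger of mammalian sperm (41.1-fold, difference -5.36, SE 0.18, adjusted p = 0.00217), and TMEM206, which encodes an acid-activated chloride channel (difference -3.13, SE 0.07, adjusted p = 0.00129). The other sodium and cation channels and the sodium pump had 8 of 37 higher in ovary and 11 in testis (21.6% and 29.7%, against 28.7% and 24.3% of all genes). FGF13 and FGF12 encode proteins that bind voltage-gated sodium channels, and both were higher in ovary, FGF13 by at least 182-fold (difference 8.48, SE 0.11, adjusted p = 0.000705) and FGF12 by 16-fold (difference 4.00, SE 0.15, adjusted p = 0.00259). SGK2, a kinase gene whose relatives keep epithelial sodium channels at the surface, differed by 9.63 (SE 0.32, adjusted p = 0.00216) with 1 testis pool at background. CNGA3, a cyclic nucleotide-gated channel of cone cells, was at least 18.6-fold higher in testis (difference -5.20, SE 0.33, adjusted p = 0.00571), ATP1B4 at least 16.4-fold (difference -4.83, SE 0.097, adjusted p = 0.00113) and the acid-sensing channel gene ASIC2 at least 10.7-fold (difference -4.33, SE 0.44, adjusted p = 0.0137). Ovary was at background for these last 3, and the call of ASIC2 ended without either ovary pool (adjusted p = 0.0115 to 0.0614). Nerve and glia markers were higher in ovary, as FGF12 and FGF13 were, and so were markers of several other cell types given above. Their part was not tested.

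**Figure D4:**
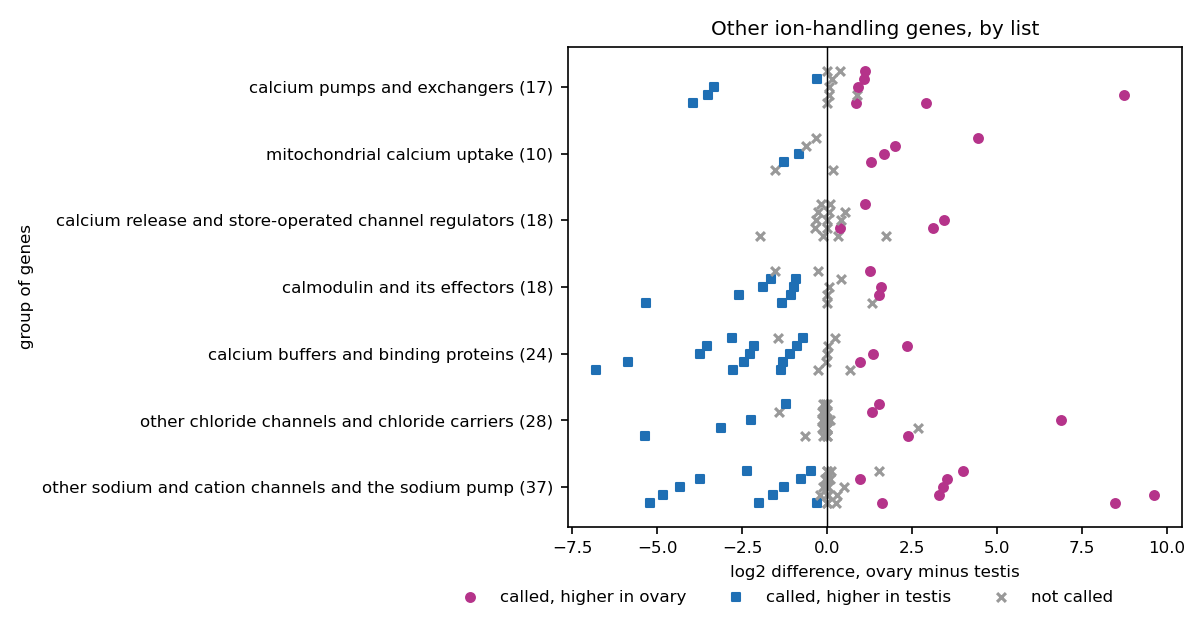
The log2 difference, ovary minus testis (x axis), of the genes on 7 lists of other ion-handling genes (y axis, number of measured genes in brackets), 1 point a gene, with circles for genes called higher in ovary, squares for genes called higher in testis and crosses for genes not called. In the list of calcium buffers and binding proteins 14 of 24 genes are called left of 0 and 3 right of it. Among 18 regulators of calcium release 4 are called right of 0 and 0 left of it. Of all genes with a symbol 28.7% were called toward ovary and 24.3% toward testis.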

How the data were processed

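Per the labels' protocols, total RNA of 16 chickens was combined into 4 pools and hybridised to 1 Affymetrix Chicken Genome Array each. The authors deposited log2 values per probe set, and the submitters' processing notes name GCRMA and MAS5 without role or version. Of 38535 rows, 153 control probe sets were left out. Symbols come from the platform annotation, updated through a gene table of assembly GRCg7b that matched 95 of the 96 genes. No further normalization was applied. The members, the role groups and the gene lists were chosen with earlier results of these data known.

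All 38382 probe sets were fitted together with limma 3.58.1 in R 4.3.3 (lmFit, eBayes, two-sided, Benjamini-Hochberg adjustment), and 2 residual and 0.741 prior degrees of freedom were available. With 4 arrays the precision is limited. A p-value reflects only the spread between pools of the same organ, taken over both organs and moderated over all probe sets. With a pool left out, only the organ that keeps both pools gives this spread. An exact permutation test of 2 against 2 pools cannot go below p = 0.333. The background level, log2 3.32, is the 99th percentile of 689 probe sets that do not carry chicken names, of which 0 were called and 6 had an unadjusted p under 0.05. Where both pools of the dimmer organ lay at or below it, the fold is the brighter organ's mean over that level, written "at least". The fit was also run on simulated data with independent noise and far fewer changed probe sets than were called here. That run cannot show how the fit behaves on these 4 arrays.

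Values in every pool are given for up to 4 called genes per direction and role group, for each gene called with at least a 4-fold difference and for genes with probe sets called in both directions, and for other genes where a sentence singles them out, which were chosen after their values were seen. Per list of other genes, up to 3 called genes per direction were eligible. Pool numbers pair no samples per the labels, and the deviations of same-numbered pools correlated at r = 0.0524. The alternatives were filters on dim probe sets, 3 forms of moderation, 2 normalizations, a floor, the pool number as a block, averaged probe sets and leaving out each pool. Sequences were not used here.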

Additional observations from a re-analysis of the deposited data

How the results depend on the processing

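Among the genes called higher in ovary and in testis, 9 of 16 and 12 of 20 were called in the same direction with each pool left out in turn, where 43.2% and 41.5% of all called genes were. Leaving out a pool gave 12 to 17 channel genes higher in ovary and 16 to 19 in testis. For channel probe sets the ranges were 18 to 29 and 33 to 36, with the lowest ovary count without testis pool 2, and for the genes of the 7 lists 16 to 30 and 27 to 34. The alternatives that kept all pools gave 12 to 21 genes higher in ovary and 16 to 25 in testis, the lowest both without moderation. Without moderation the 7 lists gave 21 genes higher in ovary and 25 in testis. With the pool number as a replicate block, 14 and 17 channel genes and 31 and 32 list genes were called, and the calls of TRPM8, SCN8A, SCNN1A, CLCN5, ANO5 and ANO4 were lost. RYR2 changed sign with the mean of its probe sets, to 1.54. The cause was not tested for any of these changes. Fold sizes are bounds where an organ was at background.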

Other observations

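Some channel genes lie close together in the genome, which the choice by symbol did not use. In the gene order of assembly GRCg7b, 21 pairs of consecutive channel genes had at most 19 protein-coding genes between them. Both genes were called in 6 of these pairs. Of all genes with a symbol 53.0% were called, which is a share of single genes and not of pairs. The share of such pairs over all genes was not computed, nor their directions. The counts of pairs can thus be called neither high nor low. In 4 of the 6 the genes were called in one direction. TRPV1 and TRPV3, adjacent on chromosome 19, were both higher in testis (-3.08 and -3.24), as were P2RX1 and ORAI3 on the same chromosome with 17 genes between them. SCN1A and SCN2A on chromosome 7, with 3 genes between them, were both higher in testis (-5.06 and -4.44), while the probe sets annotated to SCN3A alone, the gene adjacent to SCN2A, were at background. TPCN2 and ANO1 on chromosome 5, with 6 genes between them, were both higher in ovary (4.53 and 2.33). The other pairs were called in opposite directions. On chromosome 13 PKD2L2 (-5.01) and TRPC7 (4.53) had 5 genes between them, and on chromosome 5 ANO3 (-1.80) and ANO5 (1.05) had 5 as well. Pairs of paralogues can share probe sequence, and no test was run on these pairs.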
